A study of Mus musculus with 5 samples.

Results

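The protamine and transition protein genes Prm1, Prm2, Prm3, Tnp1 and Tnp2 were examined in ChIP-seq peak lists of the zinc finger protein ZFP541. All 5 were found by symbol among 21775 protein-coding genes of the GRCm38.p6 annotation, and every peak over their bodies or within 50 kb on each side was collected, together with the nearest peak in each library. The libraries came from pachytene and diplotene spermatocytes enriched by STA-PUT, a sedimentation method, from testes of adult C57BL/6 mice. The groups were Zfp541-/- cells precipitated with an antibody against ZFP541 (1 library), wild-type cells precipitated with the same antibody (2 libraries), and wild-type input chromatin (2 samples, whose peaks were not analysed here). The labels name no knockout allele beyond Zfp541-/- and do not say whether the wild-type replicates came from separate animals. Peak lists hold no expression values, so the labelled cell type could not be checked against marker genes.

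In sperm formation, most histones are first replaced by the small basic transition proteins and then by protamines, which pack the DNA of the sperm head. Prm1, Prm2, Tnp1 and Tnp2 are known to be transcribed after meiosis, in round spermatids, and their mRNAs are stored before translation in elongating spermatids. Spermatocytes in prophase, the cells used here, precede that stage. Prm3 is named for its place in the protamine cluster and encodes a small acidic protein of the spermatid cytoplasm.

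Prm1, Prm2, Prm3 and Tnp2 form 1 cluster of 8889 bp on chromosome 16 (10787935 to 10796823, mm10), all on the minus strand, and any peak near them is shared by all 4. Tnp1 lies alone on chromosome 1 (73015074 to 73015899, minus strand). The 5 genes are short, between 407 bp for Prm3 and 826 bp for Tnp1. The 250 bases before each start are printed 5′ to 3′ on the gene's strand, from RefSeq (GRCm38.p6), with CpG dinucleotides in capitals, because the 5 promoters held few of them and promoters under wild-type peaks, which were also richer in GC, held many. Socs1, the neighbour of Tnp2 that carried the nearest peak to the cluster, is shown for contrast, although a peak reached its printed bases in replicate 2 only. The intervals on the minus strand are chr16:10796824-10797073 for Prm1, chr16:10792106-10792355 for Prm2, chr16:10790915-10791164 for Prm3, chr16:10788656-10788905 for Tnp2, chr1:73015900-73016149 for Tnp1 and chr16:10785537-10785786 for Socs1.
Prm1: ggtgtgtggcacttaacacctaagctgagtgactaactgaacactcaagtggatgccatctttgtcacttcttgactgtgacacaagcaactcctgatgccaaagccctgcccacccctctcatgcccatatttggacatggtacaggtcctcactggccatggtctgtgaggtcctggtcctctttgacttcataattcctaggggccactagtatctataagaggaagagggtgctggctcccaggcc
Prm2: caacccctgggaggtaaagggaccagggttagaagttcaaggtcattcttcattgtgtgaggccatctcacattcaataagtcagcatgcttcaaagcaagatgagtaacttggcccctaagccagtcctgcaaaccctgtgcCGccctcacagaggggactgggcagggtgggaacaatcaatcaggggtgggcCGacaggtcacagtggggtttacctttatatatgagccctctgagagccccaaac
Prm3: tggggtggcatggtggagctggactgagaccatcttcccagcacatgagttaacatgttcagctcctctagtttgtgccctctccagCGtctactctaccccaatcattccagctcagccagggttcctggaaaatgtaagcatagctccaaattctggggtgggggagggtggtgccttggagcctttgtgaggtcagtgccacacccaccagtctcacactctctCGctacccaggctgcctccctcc
Tnp2: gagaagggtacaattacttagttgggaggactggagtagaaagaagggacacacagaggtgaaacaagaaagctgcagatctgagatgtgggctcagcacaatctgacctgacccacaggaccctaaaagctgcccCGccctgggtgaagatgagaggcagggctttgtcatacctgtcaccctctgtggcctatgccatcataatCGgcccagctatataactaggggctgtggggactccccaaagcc
Tnp1: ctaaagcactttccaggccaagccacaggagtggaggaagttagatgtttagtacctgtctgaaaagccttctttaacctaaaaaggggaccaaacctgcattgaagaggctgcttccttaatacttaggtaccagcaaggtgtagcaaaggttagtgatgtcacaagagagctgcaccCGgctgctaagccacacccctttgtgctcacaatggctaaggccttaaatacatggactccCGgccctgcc
Socs1: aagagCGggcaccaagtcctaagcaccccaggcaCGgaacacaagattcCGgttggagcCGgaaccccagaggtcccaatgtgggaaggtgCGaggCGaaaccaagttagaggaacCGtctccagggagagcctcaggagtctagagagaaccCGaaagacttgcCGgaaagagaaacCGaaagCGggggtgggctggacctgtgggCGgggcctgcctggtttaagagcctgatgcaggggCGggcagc
Prm1 holds no CpG in these bases, the other 4 genes hold 2 each, and Socs1 holds 13.

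The 3 lists held 256 peaks in the Zfp541-/- library and 8236 and 10371 peaks in wild-type replicates 1 and 2. At Zfp541 itself the Zfp541-/- library had no peak within 1 kb of the gene, against strongest folds of 18.6 and 22.2 in the wild-type replicates. Fold enrichment is the authors' peak caller's ratio over its background, and q is its false discovery rate. Read depth is unknown from peak lists, so a site without a peak may have been below detection. With 1 Zfp541-/- library, no test between genotypes was run.

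None of the 5 genes had a peak over its body or within 1 kb of it in any of the 3 libraries. In the Zfp541-/- library, 0.22% of all protein-coding genes had such a peak, against 27.8% and 32.6% in wild-type replicates 1 and 2, and 23.8% had overlapping peaks in both wild-type lists. The count of 0 covers only 2 separate loci. It therefore does not set these genes apart from the 23.8%. That share was also not matched on gene length, and these genes are short (407 to 826 bp), with narrower windows than longer genes. The promoter windows, 250 bases before to 50 bases after the start, held no peak either. Such windows had a peak at 0.0047% of all coding promoters in the Zfp541-/- library, at 19.3% in wild-type replicate 1, at 23.1% in wild-type replicate 2 and at 16.8% in both wild-type lists.

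Within 50 kb, 0 of the 5 genes had a peak in the Zfp541-/- library, against 4 of 5 in wild-type replicate 1 and the same 4 in replicate 2. The 4 were Prm1, Prm2, Prm3 and Tnp2, the cluster on chromosome 16, and Tnp1 was the gene without a peak. The background shares of coding genes with a peak in such a window were 0.776% in the Zfp541-/- library, 51.6% and 56.9% in wild-type replicates 1 and 2, and 45.8% for overlapping peaks in both. As the 4 genes share their peaks, the 5 genes count as 1 locus with wild-type peaks and 1 without. These are too few loci to compare with the background shares.

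The peaks beside the cluster lay over or next to its coding neighbours, Socs1 on the lower side and Rmi2 on the higher side. Socs1, a suppressor of cytokine signalling, has its start 2399 bp from the nearest base of Tnp2. The Zfp541-/- library had no peak there, while wild-type replicate 1 had a peak of fold 8.46 (chromosome 16, 10784010 to 10785473, −log10 q 19.8). Replicate 2 had a peak of fold 9.68 at the same place (10783884 to 10785731, −log10 q 25.8). These folds exceeded those of 86.9% and 90.6% of the peaks in their libraries. The summits differed by few bases, lying 1051 bp and 1061 bp inside Socs1 from its annotated start. The replicate 1 peak ended 63 bp inside Socs1, short of the start, and the replicate 2 peak covered 195 of the 250 Socs1 bases printed above. A further weak peak, of fold 3.02 and −log10 q 0.858, followed Socs1 on the lower side in replicate 2 alone (10783211 to 10783459).

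Rmi2, which encodes a subunit of the complex that dissolves recombination intermediates with the BLM helicase, lies 38236 bp from Prm1. No peak was called at Rmi2 in the Zfp541-/- library. The wild-type peaks had folds of 6.07 in replicate 1 (10835021 to 10835471, −log10 q 7.41) and 7.38 in replicate 2 (10834945 to 10835659, −log10 q 11.7). Both replicates thus had a peak at each flank, and neither had one between them. The interval from the Socs1 region to the Rmi2 region was 49213 bp long, and the 4 cluster genes were the only coding genes wholly inside it. The 21562 coding genes compared lay over a shared wild-type region or had such regions on both sides. Of these genes, 75.3% lay in an interval at least as long, and 23.1% lay over such a region. The median interval of genes not over one was 774689 bp, so the cluster sat in a shorter interval than most.

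**Figure D1:**
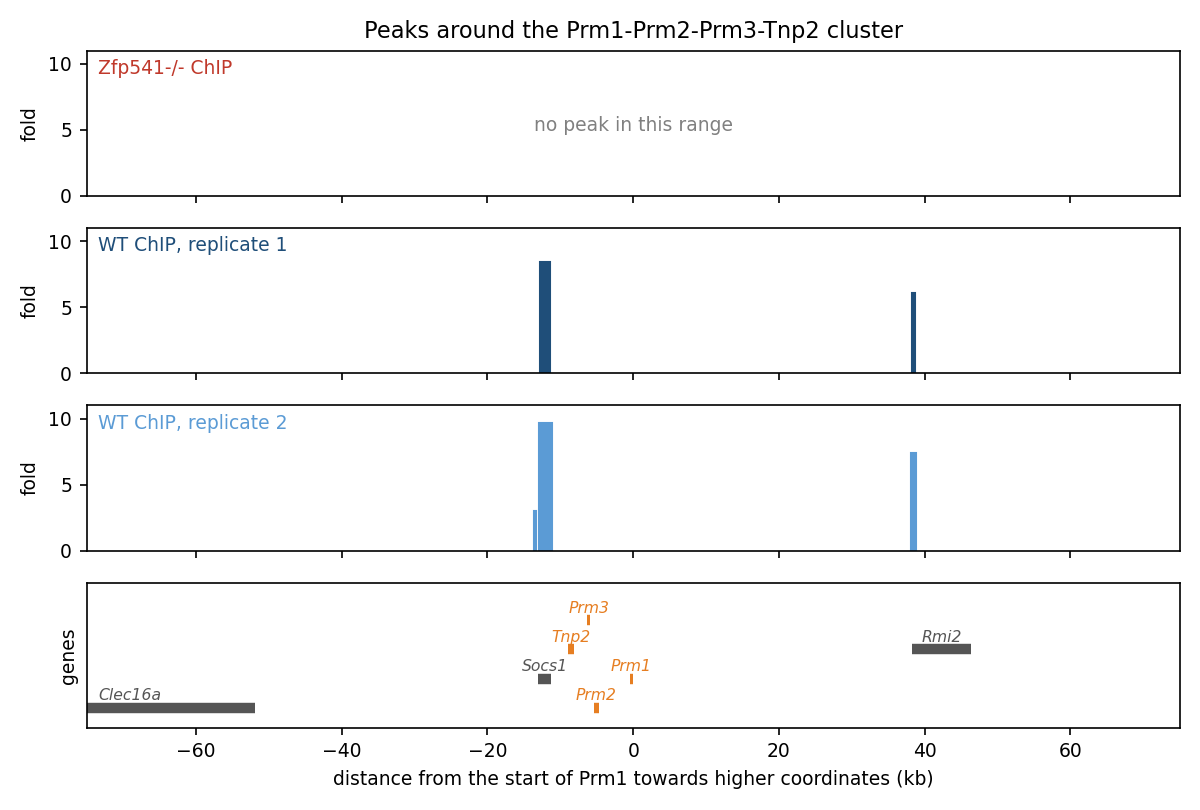
Peaks around the Prm1, Prm2, Prm3 and Tnp2 cluster in the Zfp541-/- library (top) and wild-type replicates 1 and 2, with fold enrichment as bar height, peak width to scale, and distance from the Prm1 start in kb. Wild-type peaks stand over Socs1 (folds 8.46 and 9.68) and at Rmi2 (6.07 and 7.38), with none over the 4 cluster genes (orange).

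Distances from gene body to nearest peak followed the order of the genes along the cluster. Tnp2, nearest to Socs1, was 355311 bp from the nearest Zfp541-/- peak, against 2462 bp and 2204 bp in wild-type replicates 1 and 2. Prm3 was 353052 bp away in the Zfp541-/- library, against 5035 bp and 4777 bp. Prm2 was at 351861 bp in the Zfp541-/- library, against 5904 bp and 5646 bp in the wild-type replicates. Prm1, the farthest from Socs1, was at 347143 bp in the Zfp541-/- library and at 10859 bp and 10601 bp in wild-type replicates 1 and 2. The wild-type values of each of the 4 cluster genes differed by 258 bp between replicates, the difference between the ends of the 2 Socs1 peaks. Between 28.9% (Tnp2) and 34.4% (Prm1) of coding genes were nearer to a replicate 1 peak, and between 33.6% and 39.7% were nearer to a replicate 2 peak.

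The nearest Zfp541-/- peak to the cluster lay inside Zc3h7a (chromosome 16, 11143966 to 11144287) with a fold of 5.24 and −log10 q of 101. Wild-type peaks overlapped it, with folds of 6.08 and 5.92 in replicates 1 and 2. It is therefore 1 of the places where all 3 lists had a peak. Of coding genes, 96.4% were as far as Prm1 or farther from a Zfp541-/- peak.

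Tnp1 lay in a long stretch with few peaks. Its nearest Zfp541-/- peak was 37161143 bp away, nearest to the cadherin gene Cdh7, with a fold of 3.63 and −log10 q of 0.818. Without peaks above a q-value of 0.05 it was 53805003 bp away, and with a −log10 q minimum of 5 it was 110283250 bp away. The whole Zfp541-/- list held only 6 peaks on chromosome 1. With all its peaks, 8.17% of coding genes were as far as Tnp1 or farther from one, and the median distance of coding genes was 8656181 bp. In wild-type replicate 1 the nearest peak was 413003 bp away, inside the annealing helicase gene Smarcal1 (chromosome 1, 72601845 to 72602071), with a fold of 3.93 and −log10 q of 2.38. In replicate 2 it was 124818 bp away on the other side, inside the lncRNA genes Gm29185 and Gm31197 (73140717 to 73140936), with a fold of 3.02 and −log10 q of 0.858. Each of these wild-type peaks was called in 1 replicate only, and both folds were low, above those of 38.0% and 14.9% of peaks in their libraries. The replicate 2 peak does not reach a q-value of 0.05, and with such peaks left out the nearest one was 777980 bp away.

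The nearest regions with overlapping wild-type peaks ended at 72237094 below Tnp1 and began at 74235921 above it on chromosome 1, leaving 1998826 bp between them. Intervals at least as long held 4558 of the 21562 coding genes (21.1%). Inside it were 14 coding genes, no Zfp541-/- peak, 1 peak of wild-type replicate 1 and 2 peaks of replicate 2. The nearest coding neighbours of Tnp1 were Igfbp5, which encodes a binding protein of insulin-like growth factors and lies 140209 bp away, and Tns1, a focal adhesion gene 894333 bp away. The lncRNA gene 1700027A15Rik lies 137 bp from the Tnp1 start, and no peak lay between them in any library. Of coding genes, 83.8% were nearer to a replicate 1 peak than Tnp1 and 71.4% were nearer to a replicate 2 peak.

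**Figure D2:**
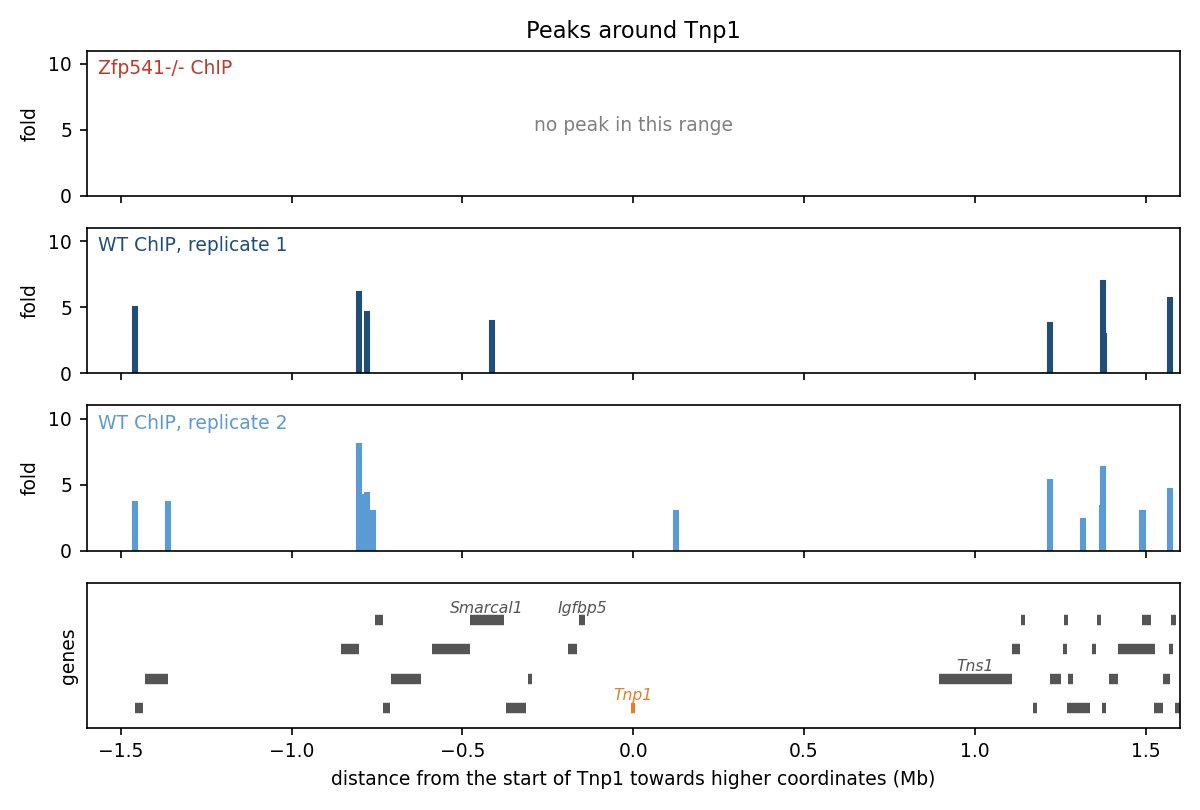
Peaks within 1.6 Mb of the Tnp1 start in the Zfp541-/- library (top) and wild-type replicates 1 and 2, with fold enrichment as bar height and narrow peaks and genes widened to be visible. The Zfp541-/- list has no peak in this range, and between the shared peaks on both sides each wild-type list has isolated weak peaks, of folds 3.93 and 3.02 for those nearest to Tnp1 (orange).

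**Figure D3:**
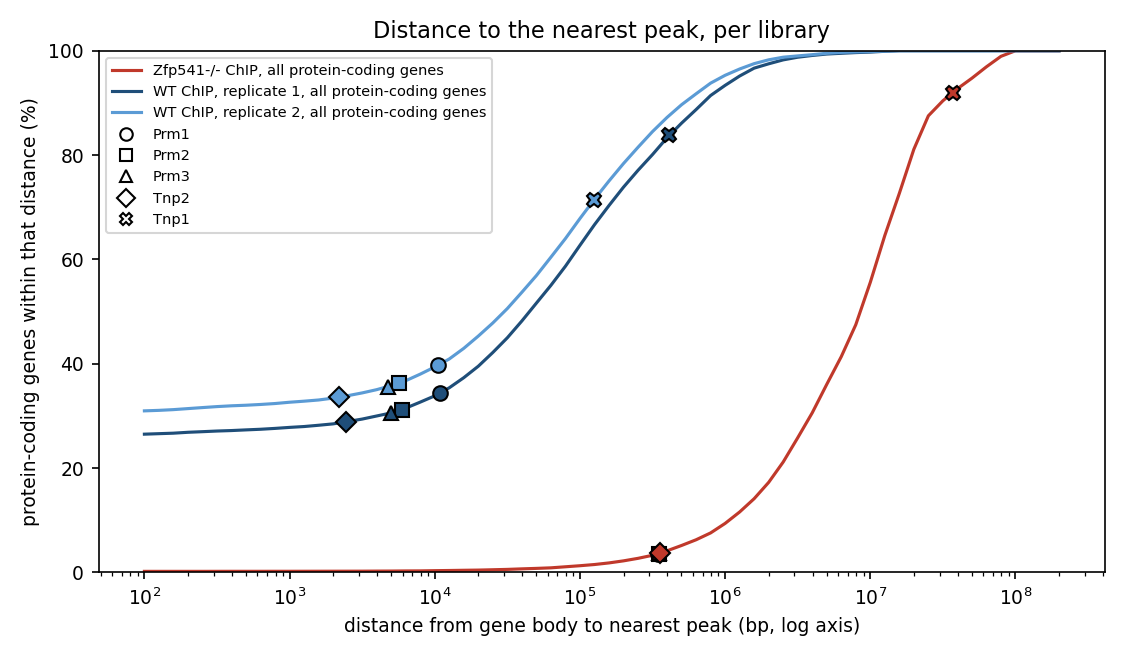
Share of protein-coding genes (lines, %) within a given distance of a peak (bp, log axis) in the Zfp541-/- library and wild-type replicates 1 and 2, with the 5 genes as symbols on the line of each library. On the wild-type lines the cluster genes sit at 2204 to 10859 bp, with 28.9% to 39.7% of coding genes nearer to a peak. Tnp1 lies farther right (413003 and 124818 bp). On the Zfp541-/- line the cluster genes sit at 347143 to 355311 bp and Tnp1 at 37161143 bp.

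Few CpG dinucleotides were a feature that all 5 promoters shared and that the choice of the genes did not use. In the 300-base windows Prm1 had 1 CpG, Prm2 had 3, Prm3 and Tnp2 had 4 each, and Tnp1 had 6. Socs1 had 18. The ratio of observed to expected CpG was 0.0487 for Prm1, 0.137 for Prm2, 0.164 for Prm3, 0.174 for Tnp2 and 0.313 for Tnp1. These values exceeded those of 5.07% (Prm1) to 33.1% (Tnp1) of 21254 promoter windows of coding genes. Their GC content was 50.7% to 57.0%, around the median of all windows, 56.3%.

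Promoter windows with overlapping peaks in both wild-type lists had a median of 31 CpG, a median ratio of 0.903 and a median GC content of 68.7%. The other windows had medians of 9 CpG, 0.44 and 54.3% GC, so GC content differed along with CpG. The GC content of the 5 genes was near this lower median, and their CpG counts were below the median of 9. Peaks in both wild-type lists stood at 0.026% of windows with 0 to 2 CpG, the class of Prm1, which is 1 of 3839 windows. They stood at 0.495% of windows with 3 to 5 CpG, the class of Prm2, Prm3 and Tnp2, and at 2.29% of those with 6 to 10, the class of Tnp1. The share was 11.6% at 11 to 20 CpG, the class of Socs1, and 41.6% at 21 or more. In the Zfp541-/- library 1 of all these windows had a peak, in the class of 6 to 10 CpG. A lack of peaks at the 5 promoters was thus common to nearly all promoters with as few CpG. This is a description across promoters, which are not independent replicates, and the part of GC content or of gene expression was not tested.

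**Figure D4:**
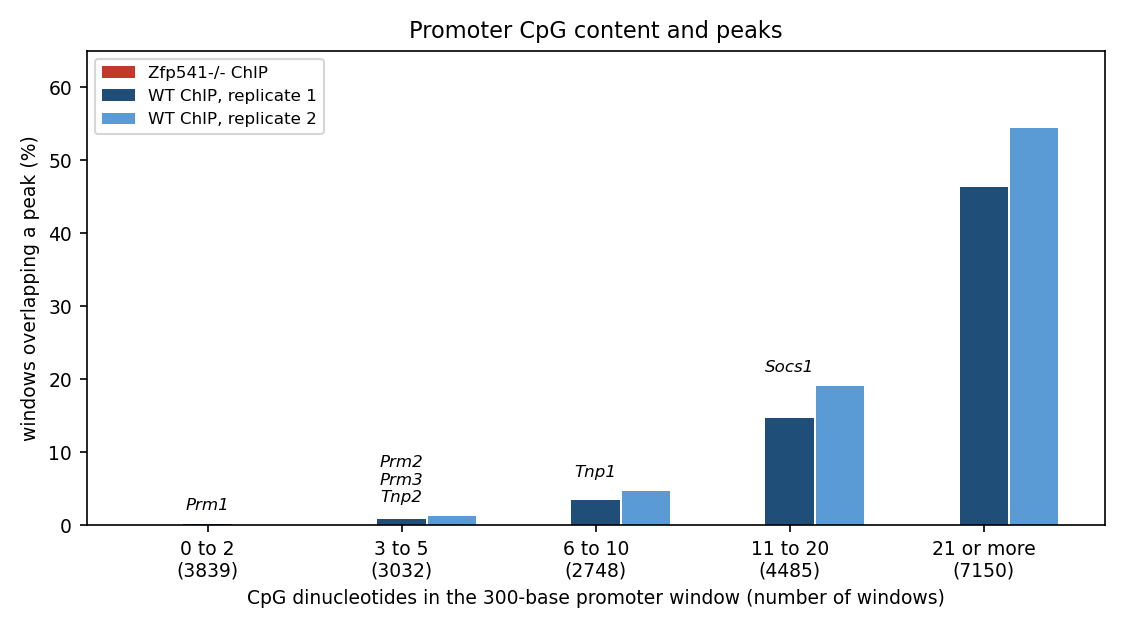
Share of promoter windows of coding genes that overlap a peak (%), by number of CpG dinucleotides in the window, for the Zfp541-/- library and wild-type replicates 1 and 2. In wild type the classes that hold the 5 genes have few peaks (at most 3.46% and 4.66% in replicates 1 and 2) and the class of 21 or more CpG has the most (46.3% and 54.4%), while the Zfp541-/- library has 1 peak, in the class of 6 to 10 CpG (0.0364%).

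Sequence motifs of spermatid promoters were searched in the same windows on both strands. TGACGTCA, the cyclic AMP response element that CREM binds, was in none of the 5, in 2.23% of all windows and in 3.42% of those with peaks in both wild-type lists. Its shorter core TGACG was in none of the 5, in 23.6% of all windows and in 34.2% of those with such peaks. Both sequences contain a CpG, so these counts are not separate from the CpG counts above. The 5 windows held 1 to 6 CpG, against a median of 31 in windows with peaks in both wild-type lists. A looser form chosen after the sequences had been seen, TGANNTCA, which includes TGACGTCA, was in Prm1 as tgacttca 64 bases before the start, in Prm3 as tgaggtca 60 bases before and in Tnp1 as tgatgtca 94 bases before. It was in 13.2% of all windows and in 7.5% of those with peaks in both wild-type lists. TATAAA matched on the opposite strand of Prm2 only, 31 bases before the start, against 12.6% of all windows and 4.26% of those with such peaks. CCAAT matched Prm3 only, against 38.2% of all windows and 33.9% of those with such peaks. TATA on the gene's strand between 40 and 15 bases before the start, also chosen after the sequences had been seen, was in Prm1, Prm2 and Tnp2, where it overlaps the TATAAA match in Prm2. It was in 6.37% of all windows and in 1.88% of those with peaks in both wild-type lists.

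Genes that act on the protamines and transition proteins were examined in 4 lists with 44 matched genes, counting peaks within 1 kb of the gene body. In the Zfp541-/- library 1 of 44 had a peak, against 15 in wild-type replicate 1, 20 in replicate 2 and 12 with overlapping peaks in both. These are 2.27% of the listed genes in the Zfp541-/- library (0.22% of all coding genes), 34.1% in wild-type replicate 1 (27.8%), 45.5% in replicate 2 (32.6%) and 27.3% in both (23.8%). No test of these differences was run. Longer genes have wider windows, and the lists were not matched to other genes on length.

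Of 20 genes of histone-to-protamine exchange and spermatid chromatin, none had a Zfp541-/- peak (0.22% of all coding genes did). Overlapping wild-type peaks were at 5 of the 20 (25%), near the 23.8% of all coding genes. In wild-type replicates 1 and 2 taken alone, 30% and 35% of the 20 had a peak, against 27.8% and 32.6% of all coding genes. Top2b, a topoisomerase gene, had folds of 13.3 and 12.8 in wild-type replicates 1 and 2, with summits 332 bp and 432 bp from the nearest annotated start. Chd5, whose remodeler is needed for histone removal in mouse spermatids, had 10.3 and 11.1. The ubiquitin ligase gene Rnf8 had 9.29 and 8.74, and Epc1, a subunit gene of an acetyltransferase complex, had 7.14 and 7.99. The fifth was the testis kinase gene Tssk6 (6.48 and 7.05), named to complete the count.

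Of 10 regulators of protamine and transition protein transcription, 1 had a Zfp541-/- peak (10%, against 0.22% of all coding genes). Overlapping wild-type peaks were at 4 of the 10 (40%, against 23.8%). Kif17, a kinesin gene whose product moves the CREM coactivator FHL5, had wild-type folds of 10.0 and 11.7. Crem, the transcription factor gene needed for spermatid expression of Prm1 and Tnp1 in mice, had 3.92 and 6.32. Tbpl1, which encodes a TBP-like factor, had 5.79 and 4.36, and the X-linked Taf7l, a germ-cell TFIID subunit gene, had 3.93 and 4.03. The median folds of all peaks were 4.29 and 4.03 in wild-type replicates 1 and 2, so Crem and Taf7l were below it in replicate 1. In wild-type replicate 1, 4 of the 10 had a peak (40%, against 27.8% of all coding genes), and in replicate 2, 8 of the 10 (80%, against 32.6%). Gtf2a1l, a germ-cell gene of the TFIIA family, had a Zfp541-/- peak of fold 10.9 and none in wild-type replicate 1. In replicate 2 it had a peak of fold 3.02 elsewhere in the gene, whose −log10 q of 0.858 does not reach a q-value of 0.05. The other genes called in replicate 2 alone also had weak peaks. These were Kdm3a (fold 4.11, −log10 q 3.24), Rfx2 (4.03 and 2.86) and Nr6a1 (3.36 and 1.48), against a median fold of 4.03 in that replicate. The 80% therefore rests in part on weak peaks seen in 1 replicate.

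Of 9 genes of storage and translation of their mRNAs, none had a Zfp541-/- peak. Overlapping wild-type peaks were at 1 gene (11.1%, against 23.8% of all coding genes). This was Ybx3, which encodes a Y-box protein that binds protamine mRNA, with folds of 8.93 and 9.06 and summits 35 bp and 113 bp from the start. In wild-type replicates 1 and 2 taken alone, 22.2% and 33.3% of the 9 had a peak. Of 5 genes of protamine phosphorylation, dephosphorylation and cross-linking, none had a Zfp541-/- peak. Overlapping wild-type peaks were at 2 of the 5 (40%, against 23.8%), and 60% and 40% had a peak in wild-type replicates 1 and 2 taken alone. Srpk1, a kinase gene for protamine 1, had 6.28 and 7.68, and the chaperone gene Hspa4l had 5.09 and 4.36. Of the 12 pathway genes with overlapping wild-type peaks, 10 had a start in the promoter table, and the summits of their strongest peaks lay 35 bp to 1193 bp from it (Ybx3 and Taf7l).

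**Figure D5:**
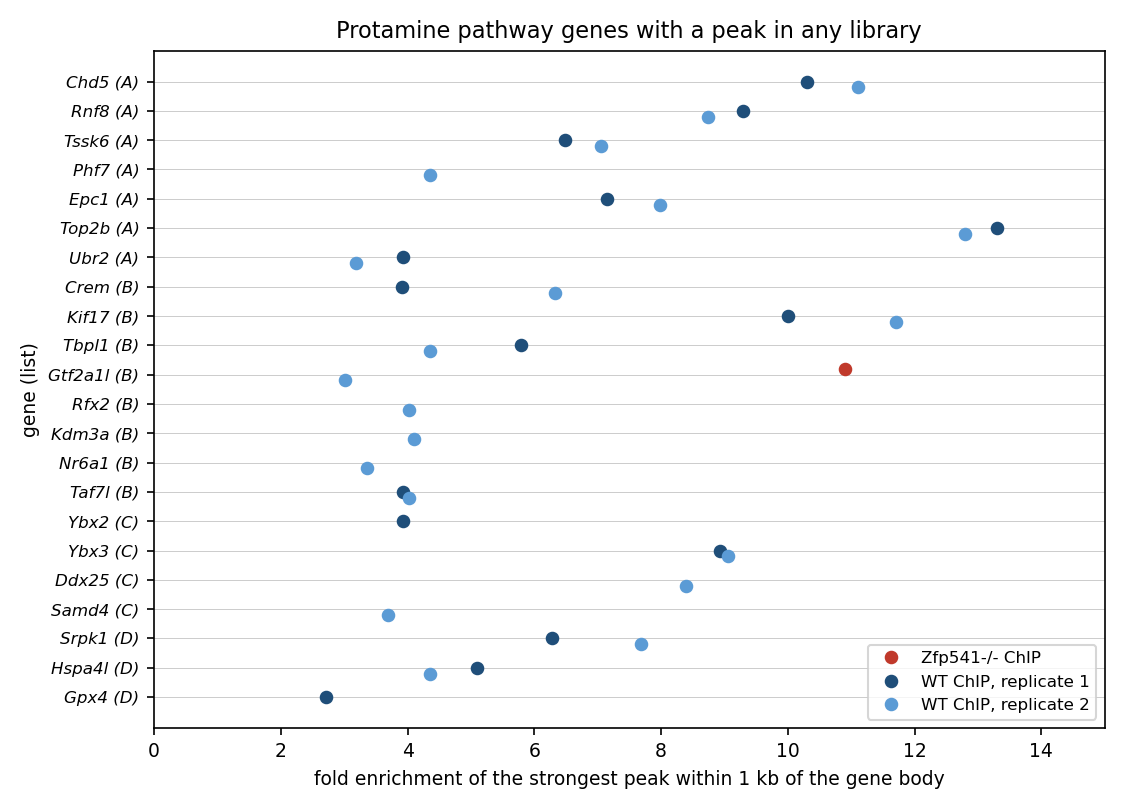
Fold enrichment of the strongest peak within 1 kb of each pathway gene with a peak in any library, in the Zfp541-/- library and wild-type replicates 1 and 2. Letters mark the lists in the order of the text (A exchange, B transcription, C mRNA storage, D protamine modification), and Gtf2a1l is the gene with a Zfp541-/- peak (fold 10.9).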

How the data were processed

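ChIP-seq peak lists of 1 Zfp541-/- and 2 wild-type ZFP541 ChIP libraries were used; 2 wild-type input samples were not analysed here. The build was mm10 and the tools were MACS2 2.2.6, Bowtie2 2.3.5, cutadapt 2.6, Picard, deepTools 3.5.0 and SAMtools 1.10, as the submitters' processing notes list them; how they were set, and against which control peaks were called, was not given in those notes as used here. A deposited list covers 1 library and holds a fold (ratio) over the caller's background, a −log10 p, a −log10 q and a score of 10 times the −log10 q for each peak. These are the authors' values. The deposited lists include peaks with a q-value above 0.05 (11.3% of Zfp541-/- peaks, 19.2% and 22.6% in the wild-type replicates). The lists give no depth.

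Genes and promoter windows came from RefSeq tables of GRCm38.p6, the assembly of mm10. Left out were 108 protein-coding entries placed before 3 Mb on autosomes and X, where the chromosome has no sequence. Peaks sharing at least 1 bp with a window counted, and a peak in both wild-type lists means a pair that overlaps each other, both in the window. No test was run: values are counts and distances beside the same over all coding genes. The genes, lists and motifs were chosen with earlier results of these data known. Of 45 listed pathway genes 44 were matched; H1f9 was not. Named were the 5 genes, their coding neighbours, the genes nearest to their peaks, up to 4 genes per list by mean fold of wild-type peaks and any with a Zfp541-/- peak. Tssk6, Kdm3a, Rfx2, Nr6a1, Gm29185, Gm31197 and 1700027A15Rik were added after their values were seen. Protein sequences were not analysed here. The interval steps were tested on simulated data. Computations used Python 3.11.15 (scipy 1.17.1, pandas 2.3.3, numpy 2.4.6) and figures matplotlib 3.10.9.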

Additional observations from a re-analysis of the deposited data

How the results depend on the processing

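The counts of the 5 genes did not change under any alternative run: 4 with a wild-type peak within 50 kb, and 0 within 1 kb, at the promoter or in the Zfp541-/- library. These were stricter q-values, the lowest −log10 p of the Zfp541-/- list (4.47) as a minimum, summits in place of peaks, other window sizes, a reciprocal overlap of 50% and 1 wild-type replicate alone. Of all values over counts and background shares, 138 stayed within 1.5 times and 15 did not. With −log10 q minimums of 5 and 10, the background within 50 kb was 0.377% and 0.271% in the Zfp541-/- library, 33.1% and 20.6% in wild-type replicate 1, 37.0% and 24.9% in replicate 2, and 29.6% and 18.1% in both. In the Zfp541-/- library it was 0.51% with 25 kb and 1.29% with 100 kb. Pathway genes with a peak were 10 in replicate 2 with the minimum of 5, and with that of 10 they were 6 in replicate 1, 9 in replicate 2 and 6 in both. With 1 wild-type replicate left out, pathway genes numbered 15 to 20 in place of 12, since an overlap with the other list was no longer asked. The cause of the other shifts is the smaller number of peaks kept or the window itself. The nearest wild-type peak to Tnp1 moved farther away, to 802637 bp in replicate 1 and 802598 bp in replicate 2 with the minimum of 5. No paired analysis was possible because the results come from no test and the labels state no pairing between the genotypes. Depth, unknown here, limits what a missing peak shows.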
